A study of Arabidopsis thaliana with 6 samples.

Results

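Of the 73 chloroplast RNAs that were measured in CP31A precipitates, 7 come from a single cluster of genes, read in the order *ndhH*, *ndhA*, *ndhI*, *ndhG*, *ndhE*, *psaC* and *ndhD*. They were taken by gene name from the deposited table, and all 7 were present in it. The libraries were made from wild-type Columbia-0 *Arabidopsis thaliana* seedlings that had been raised in soil for 14 days at 21 °C with 16 h of light and 8 h of dark. There were 3 input libraries and 3 pellet libraries, and each pellet shares its replicate number with an input. The labels list no antibody for the inputs, although by the protocol each was drawn from the bead suspension that then gave its pellet. All samples had been cross-linked with formaldehyde and treated with RNase I, and only the pellets were then washed on the beads, which carried the antibody against CP31A. The table holds chloroplast genes alone, so that the tissue could not be checked against nuclear marker genes.

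CP31A is a nuclear-encoded chloroplast ribonucleoprotein that binds RNA through RNA recognition motifs and is known to stabilise chloroplast mRNAs and to support their editing. The cluster is transcribed as long RNAs that carry several reading frames and are then cut and spliced into shorter ones. Of its 7 products, 6 are subunits of the NDH complex, which passes electrons from ferredoxin to plastoquinone in the thylakoid membrane. The other, PsaC, is the iron-sulfur protein of photosystem I that hands electrons to ferredoxin. The operon thus mixes genes for 2 complexes, and the question put to it here was whether the RNA of *psaC* and those of the *ndh* genes around it went into the pellet to the same degree.

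All 7 genes are read from the minus strand. By RefSeq coordinates (assembly TAIR10.1, chloroplast, 154478 bp), *ndhH* lies at Pltd:122011-123192, *ndhA* at Pltd:119847-122009, *ndhI* at Pltd:119244-119762 and *ndhG* at Pltd:118377-118907. Further along the transcript lie *ndhE* at Pltd:117804-118109, *psaC* at Pltd:117318-117563 and *ndhD* at Pltd:115665-117167. All are protein-coding, and *ndhA* alone among the 7 is split, into exons of 553 nt and 530 nt with an intron of 1080 nt. The first 30 coding bases of each gene are given to identify the reading frames and to show a difference in how they begin, with the codon at which translation starts in capitals.
ndhH: ATGaagagaccagttacaggaaaagatctt
ndhA: ATGataatttatgcaacagcagtccaaact
ndhI: ATGcttcctatgataaccgggttcatgaat
ndhG: ATGgatttgcctggaccaatacatgatttt
ndhE: ATGatactcgaacatgtacttgttttgagt
psaC: ATGtcacattcagtaaaaatttatgatact
ndhD: ACGaatgattttccttggttaacaataatt
In the DNA, *ndhD* starts with ACG, and the annotation marks its mRNA as edited. The other 6 start with ATG. Among the first annotated copies of all protein-coding genes of the chloroplast apart from trans-spliced *rps12*, 74 start with ATG, 2 with GTG and 1, *ndhD*, with ACG.

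Reads had been counted over each gene with 100 nt added on each side, introns included, so that windows of close neighbours share bases. The tightest junction is that of *ndhH* and *ndhA*, where 1 base lies between the stop codon and the next start codon. It is printed to show why these windows cannot be told apart there, with the stop codon and the start codon in capitals (Pltd:121996-122025, minus strand).
ndhH-ndhA: gaagttgatcgtTAAaATGataatttatgc
The windows of *ndhH* and *ndhA* share 199 nt, those of *ndhA* and *ndhI* 116 nt and those of *psaC* and *ndhD* 50 nt. The window of *ndhH* also reaches that of *rps15*, which was not analysed here. In all, 21.4% of the *ndhH* window, 16.1% of the *ndhI* window, 13.3% of the *ndhA* window, 11.2% of the *psaC* window and 2.94% of the *ndhD* window were shared. *ndhG* and *ndhE* had windows of their own. How reads that touch overlapping windows were assigned is not given in the sources used here. The intron made up 45.7% of the *ndhA* window, so that spliced and unspliced RNA were counted together.

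**Figure D1:**
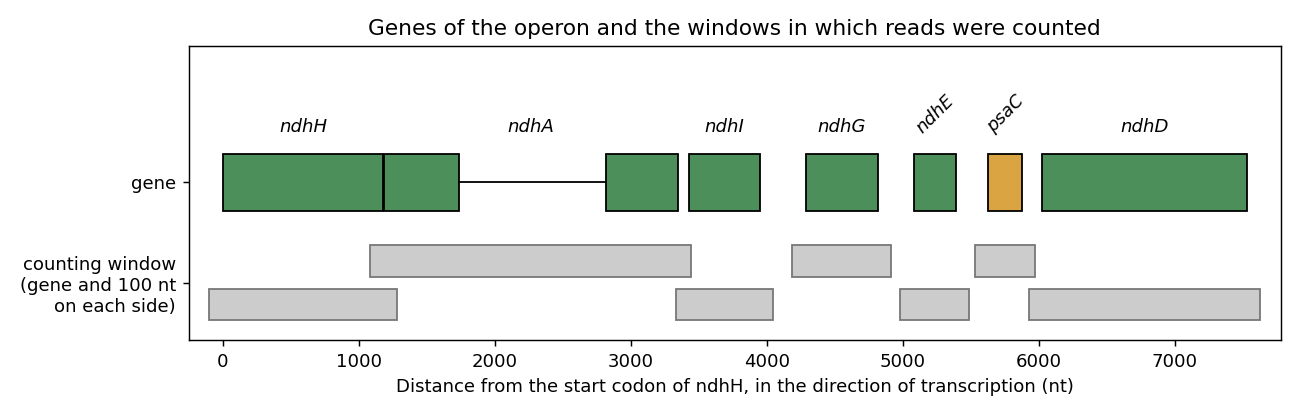
Map of the 7 genes, drawn to scale from the start codon of *ndhH* (x axis, nt), with *ndh* genes in green, *psaC* in yellow and the *ndhA* intron as a line. The grey bars are the counting windows, and they overlap between *ndhH* and *ndhA* (199 nt), *ndhA* and *ndhI* (116 nt) and *psaC* and *ndhD* (50 nt).

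The windows were AU-rich. Their GC content lay between 28.7% (*ndhI*) and 35.5% (*ndhH*), and *psaC*, at 32.5%, stood close to *ndhD* at 32.7%. *ndhG* had the highest share of U of 70 RNAs with an unambiguous window, 40.8%, followed within the operon by *ndhD* (39.5%) and *ndhE* (38.5%). *ndhI*, at 35.7%, and *psaC*, at 34.5%, had close values.

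Reads were recovered from the TPM values (reads per window length, scaled to the same total in each library) as whole numbers for all 7 genes. For the operon, inputs 1, 2 and 3 held 227, 858 and 1077 reads, and pellets 1, 2 and 3 held 7333, 11398 and 13188. Over all RNAs the libraries held from 24224 reads in input 1 to 392286 in pellet 3. Input 1 was therefore the shallowest library, and its values carry the largest counting error. Intervals for counting error are exact 95% intervals (Clopper-Pearson) for the ratio of 2 read numbers, and cover counting error only.

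The density of reads, called level here, differed widely along the operon before precipitation. TPM takes window length into account, so that genes can be compared by reads per length. The inputs had been treated with RNase I, and their reads come from the fragments left by it. The windows also hold flanks, shared bases and an intron. Whether the order is that of whole transcripts was not tested. In the inputs the mean TPM was lowest for *ndhH* (249.7 ± 98.9), followed by *ndhI* (643.6 ± 156), *ndhA* (850.4 ± 105), *ndhG* (1958 ± 961), *ndhD* (3026 ± 890), *ndhE* (3242 ± 1719) and *psaC* (7507 ± 1314; SD, n = 3 libraries each). Ranges over the inputs did not overlap between *ndhH* and *ndhI* or between *ndhE* and *psaC*. They overlapped between *ndhI* and *ndhA*, between *ndhA* and *ndhG*, between *ndhG* and *ndhD* and between *ndhD* and *ndhE*. Within a library the order was firmer. *ndhI* lay below *ndhA*, *ndhA* below *ndhG* and *ndhG* below *ndhD* in 3 of 3 inputs, and *ndhD* and *ndhE* alone changed places among these neighbours. The 6 *ndh* RNAs spanned a range of 11.8-fold, 17.5-fold and 12.9-fold in inputs 1, 2 and 3. The range was 12.6-fold, 13.4-fold and 12.9-fold in pellets 1, 2 and 3.

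*psaC* made up 60.2%, 34.5% and 38.3% of the summed TPM of the operon in inputs 1, 2 and 3. In pellets 1, 2 and 3 it made up 21.8%, 23.7% and 25.0%. Every input lay above every pellet. This share does not depend on how the libraries were scaled against each other. The operon as a whole took 1.43%, 1.77% and 2.12% of all input TPM, and for the pellets it was 3.49%, 4.06% and 4.06%.

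**Figure D2:**
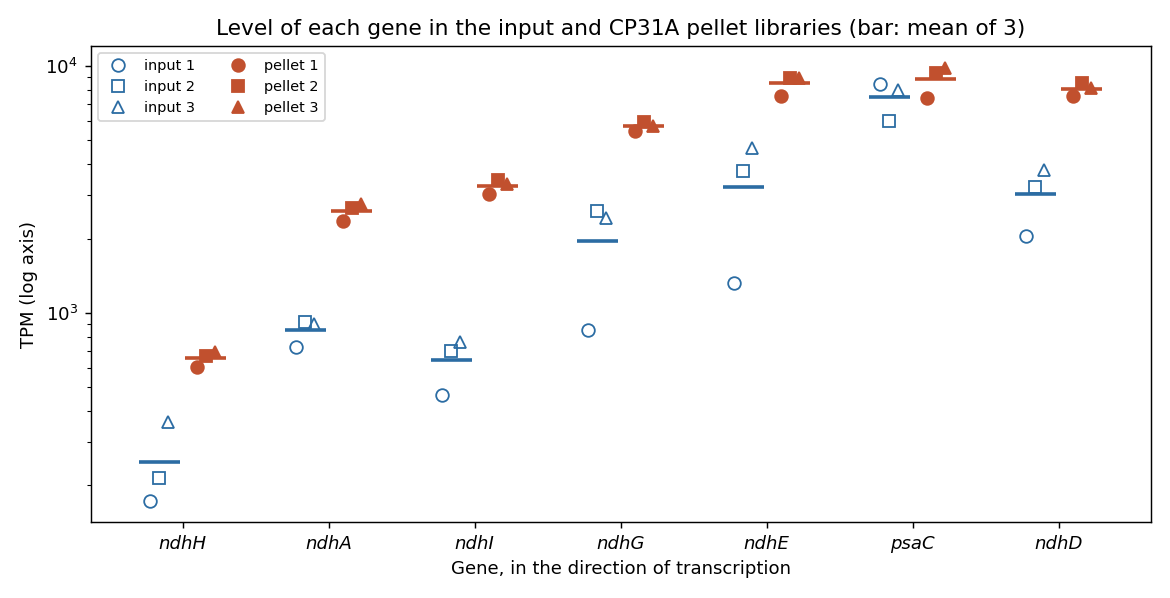
TPM (log axis) of each gene in 3 input libraries (open) and 3 pellet libraries (filled), in the order of transcription, with a bar at the mean of 3. The pellets lie above the inputs for the 6 *ndh* genes and overlap them for *psaC*.

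All 6 *ndh* RNAs of the operon had a mean enrichment of at least 2-fold in the CP31A pellets, and *psaC* did not. Enrichment is log2 of pellet TPM over input TPM in each pair, averaged over 3 pairs and tested with limma with the replicate as a block, adjusted by Benjamini-Hochberg over 73 RNAs. An RNA was called a target where this mean was 1 or more and the adjusted p was under 0.05. These were 6 of the 7 genes, against 34.2% of all RNAs. With the adjusted p alone it was the same 6, against 49.3% of all RNAs. The pellet TPM of these 6 lay above every input, which held for 63% of all RNAs. On the log2 scale the 6 *ndh* RNAs had a median enrichment of 1.59, and all RNAs one of 0.71.

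These counts depend on the scaling. The 3 RNAs with the highest input TPM took 56.5% to 67.7% of the TPM of each input and 44.8% to 50.4% of that of each pellet. With the libraries scaled by the median of ratios the median RNA was at 0.03, and 1 of the 7 genes (*ndhI*) was a target, against 2.74% of all RNAs. At the adjusted p alone *ndhI* and *ndhA* passed there, against 4.11% of all RNAs, with *ndhA* below 2-fold.

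*ndhH* encodes a hydrophilic subunit on the stromal arm of the complex. Its RNA had a TPM of 173, 214 and 361 in inputs 1, 2 and 3. The pellets had 601, 667 and 695, all above the inputs. It had the lowest TPM of the operon in every library, with 5, 17 and 31 reads in the inputs. The log2 enrichment was 1.79, 1.64 and 0.94 in pairs 1, 2 and 3, with counting intervals of 0.54 to 3.43, 0.93 to 2.44 and 0.41 to 1.52. The mean was 1.46 ± 0.45 (SD, n = 3 pairs), or 2.75-fold, with adjusted p = 0.00263 from limma. Counting alone gives this mean a standard error of 0.26, close to the 0.25 that limma gave. The limma value draws in part on the spread of all RNAs and does not measure that of these 3 pairs alone. The counting intervals of the 3 pairs overlapped.

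*ndhA* encodes a membrane subunit next to the stromal arm. Its input TPM was 730, 921 and 900 and its pellet TPM was 2362, 2662 and 2764, so that the groups stood far apart. Of the 7 genes it had the most even enrichment, 1.69, 1.53 and 1.62 in pairs 1, 2 and 3. The mean of 1.61 ± 0.08 (SD, n = 3 pairs) amounts to 3.06-fold (adjusted p = 0.00131 from limma). It rested on 36, 125 and 132 input reads. Its pair values differed by less than the counting intervals (1.22 to 2.21 in pair 1, 1.27 to 1.80 in pair 2).

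*ndhI* encodes the iron-sulfur subunit that carries electrons within the stromal arm. Its TPM was 467, 702 and 762 in inputs 1, 2 and 3, and pellets 1, 2 and 3 had 3019, 3458 and 3315. The lowest pellet exceeded the highest input 3.96-fold, the widest such gap among the 7 genes. It had the highest enrichment of the operon in each pair, at 2.69, 2.30 and 2.12, and held rank 2, 2 and 1 among all 73 RNAs in pairs 1, 2 and 3. The mean was 2.37 ± 0.29 (SD, n = 3 pairs; 95% interval 1.84 to 2.90 from limma; adjusted p = 0.000322). With 7, 29 and 34 input reads its counting intervals were wide, 1.64 to 4.02 in pair 1 and 1.63 to 2.66 in pair 3, and each lay above 2-fold.

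*ndhG* and *ndhE* encode small membrane subunits. *ndhG* had an input TPM of 852, 2597 and 2424 and a pellet TPM of 5472, 5940 and 5695. For *ndhE* the inputs gave 1326, 3752 and 4648, and the pellets gave 7598, 8943 and 8972. In both, input 1 lay far below the other inputs, by 1.56 (*ndhG*) and 1.66 (*ndhE*) on the log2 scale, while the 3 pellets were close. The enrichment was accordingly high in pair 1 (2.68 and 2.52) and low in pair 2 (1.19 and 1.25) and pair 3 (1.23 and 0.95). The means were 1.70 ± 0.85 for *ndhG* (adjusted p = 0.00363) and 1.57 ± 0.83 for *ndhE* (adjusted p = 0.00428, both from limma; SD, n = 3 pairs). For *ndhG* the counting interval of pair 1, 1.90 to 3.60, did not reach those of pair 2 (0.91 to 1.49) or pair 3 (0.95 to 1.52). For *ndhE*, too, pair 1 (1.76 to 3.40) stayed apart from pair 2 (0.97 to 1.55) and pair 3 (0.70 to 1.20). Input 1 held 13 and 14 reads of them. Without replicate 1 both were still targets, at 1.21 and 1.10, against 28.8% of all RNAs, in a fit that used 1 variance for all RNAs. With the methods' paired t-test, done on all 3 pairs, neither passed after Benjamini-Hochberg adjustment, which the methods do not name.

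*psaC* was the only gene of the 7 that did not pass. Its differences in enrichment from *ndhE* and *ndhD*, tested further on, were not called. Inputs 1, 2 and 3 had a TPM of 8489, 6014 and 8018, and pellets 1, 2 and 3 had 7396, 9391 and 9860, so that the groups overlapped. The log2 enrichment was -0.20 in pair 1, 0.64 in pair 2 and 0.30 in pair 3, the lowest of the 7 genes in each pair. The mean of 0.25 ± 0.42 (SD, n = 3 pairs; 95% interval -0.32 to 0.81) did not pass (limma, adjusted p = 0.432) and stood at rank 52 of 73. The reads, 79, 154 and 222 in the inputs, were more numerous than for any other gene of the operon but *ndhD*. The counting interval of pair 1, -0.53 to 0.15, did not overlap that of pair 2, 0.40 to 0.89. Without replicate 1 the log2 enrichment was 0.47, still below the median of all RNAs there, 0.73. It passed (adjusted p = 0.00144 from limma) in a fit that used 1 variance for all RNAs, and 79.5% of all RNAs passed there. With other scalings of the libraries the sign turned, with values from -0.58 to -0.24 under 3 of them, which did not pass.

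*ndhD* closes the cluster and encodes a large membrane subunit related to ion antiporters. Its TPM was 2054, 3222 and 3803 in inputs 1, 2 and 3, while pellets 1, 2 and 3 had 7534, 8507 and 8144, again with no overlap. The log2 enrichment was 1.87, 1.40 and 1.10, with a mean of 1.46 ± 0.39 (SD, n = 3 pairs), or 2.75-fold (adjusted p = 0.00260 from limma). It was the best covered gene of the operon with 315 and 402 reads in inputs 2 and 3, where its counting intervals, 1.24 to 1.57 and 0.95 to 1.25, did not overlap.

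**Figure D3:**
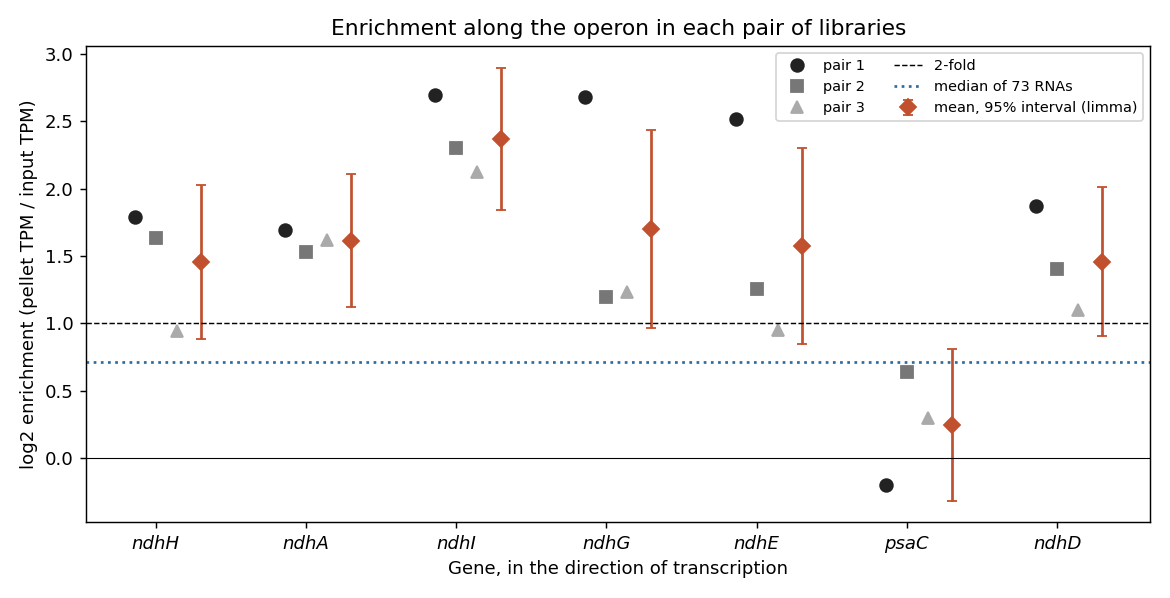
Log2 enrichment (pellet TPM over input TPM) in pairs 1, 2 and 3 with the mean and its 95% interval from limma, by gene in the order of transcription. The dashed line marks 2-fold, the dotted line the median of all RNAs (0.71), and *psaC* (mean 0.25) is the only gene of the 7 with its mean below both.

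In each pair, the log2 enrichment of *psaC* minus that of the lowest *ndh* RNA of the operon was -1.89, -0.55 and -0.65 in pairs 1, 2 and 3. The lowest was a different gene each time (*ndhA*, *ndhG* and *ndhH*), whereas *ndhI* was the highest throughout. The order of the other 5 was not stable. *ndhH* was second in pair 2 and sixth in pair 3, and *ndhG* was second in pair 1 and sixth in pair 2.

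The shift from gene to gene was tested next, as the difference in log2 TPM between a gene and its upstream neighbour within the same library. Such differences stay the same under any scaling of the libraries. The test covered 43 pairs of neighbours on the same strand of the chloroplast genome that lie at most 1000 nt apart, of which 6 are in the operon, and p-values were adjusted over the 43. In the inputs the level rose from *ndhH* to *ndhA* by 1.83 (3.56-fold, adjusted p = 0.00343 from limma). It rose from *ndhI* to *ndhG* by 1.48 (2.78-fold, adjusted p = 0.00738), from *ndhG* to *ndhE* by 0.70 (adjusted p = 0.0329) and from *ndhE* to *psaC* by 1.38 (2.61-fold, adjusted p = 0.0403, limma). From *psaC* to *ndhD* it fell by 1.34 (adjusted p = 0.0117 from limma). The step from *ndhA* to *ndhI*, -0.43, did not pass (adjusted p = 0.117 from limma). Thus 5 of the 6 steps passed in the inputs, against 65.1% of the 43.

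In the pellets the steps were close between libraries, and 4 of the 6 passed, against 93% of the 43. From *ndhH* to *ndhA* the level rose by 1.98, 2.00 and 1.99 in pellets 1, 2 and 3, and the mean of 1.99 was a 3.97-fold step (adjusted p = 1.55e-08 from limma). *ndhI* to *ndhG* (0.81) and *ndhG* to *ndhE* (0.57) rose as well. The 2 steps around *psaC* were small. From *ndhE* to *psaC* the pellets gave -0.04, 0.07 and 0.14, where the inputs gave 2.68, 0.68 and 0.79. From *psaC* to *ndhD* they gave 0.03, -0.14 and -0.28, where the inputs gave -2.05, -0.90 and -1.08. The means in the pellets, 0.06 (adjusted p = 0.303) and -0.13 (adjusted p = 0.0859, both from limma), did not pass. In each input *psaC* thus stood above both neighbours, and in the pellets it lay within 0.28 of them on the log2 scale.

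The direction of the step from *ndhA* to *ndhI* turned between inputs and pellets. *ndhI* lay below *ndhA* in all 3 inputs, by -0.65, -0.39 and -0.24, and above it in all 3 pellets, by 0.35, 0.38 and 0.26. The mean in the pellets, 0.33, passed (adjusted p = 0.000302 from limma), and that in the inputs, -0.43, did not (adjusted p = 0.117 from limma). How many of the 43 steps turned in this way was not counted. The windows of *ndhA* and *ndhI* share 116 nt, and the intron made up 45.7% of that of *ndhA*. *ndhI* had 7, 29 and 34 reads in inputs 1, 2 and 3. What these do to the step was not tested.

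**Figure D4:**
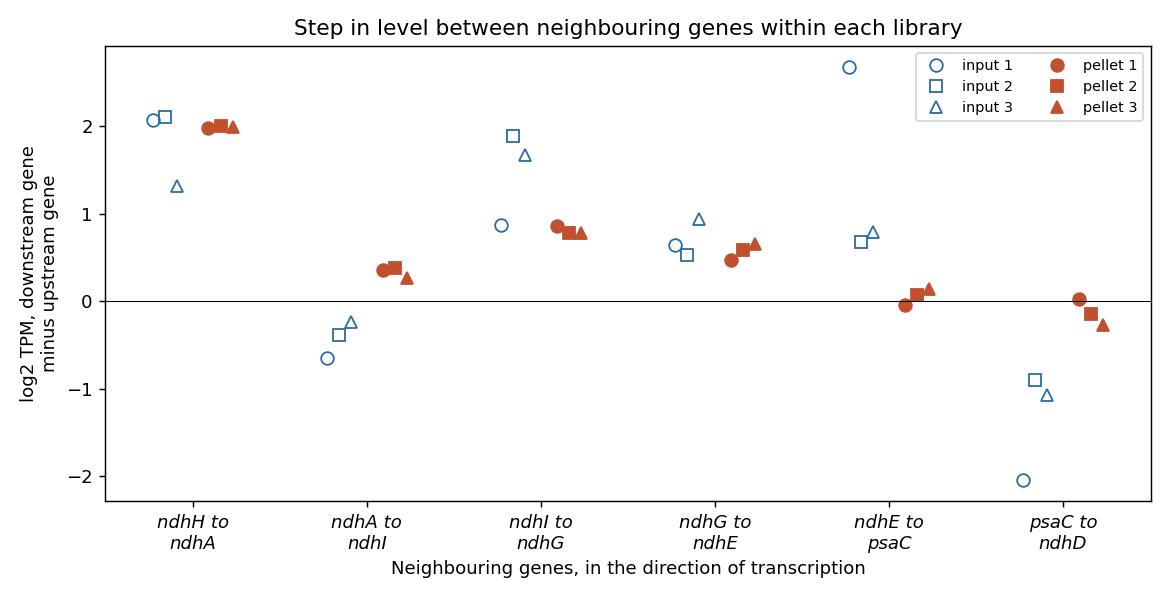
Difference in log2 TPM between each gene and its upstream neighbour in 3 inputs (open) and 3 pellets (filled). The step into *psaC* lies between 0.68 and 2.68 for the inputs and between -0.04 and 0.14 for the pellets, and the step from *ndhA* to *ndhI* is negative in all inputs and positive in all pellets.

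Whether a step differed between pellet and input is the same as whether 2 neighbours differed in enrichment. None of the 6 differences passed limma after adjustment over the 43 pairs, where 2.33% passed (1 of 43). At an unadjusted p under 0.05 there were 3 of the 6 and 12 of the 43. *ndhD* was enriched by 1.21 more than *psaC* (2.07, 0.76 and 0.80 in pairs 1, 2 and 3; 95% interval 0.32 to 2.10, adjusted p = 0.123 from limma). The difference of *psaC* from *ndhE* was -1.33 (-2.72, -0.61 and -0.65; 95% interval -2.61 to -0.04, adjusted p = 0.163 from limma). *ndhI* was enriched by 0.76 more than *ndhA* (1.00, 0.77 and 0.50; 95% interval 0.20 to 1.32, adjusted p = 0.123 from limma). Each of the 3 had the same sign in 3 of 3 pairs, but they were picked for an unadjusted p under 0.05. How many of the 43 had 1 sign throughout was not counted. Without replicate 1, which held the largest values around *psaC*, they were 0.78, -0.63 and 0.64 and passed (adjusted p from 0.000493 to 0.00212 in limma). So did the lower enrichment of *ndhG* than of *ndhI*, and 51.2% of the 43 passed there. None of the 43 passed without replicate 2, and none without replicate 3. Without the replicate block *psaC* to *ndhD* (adjusted p = 0.0473) and *ndhA* to *ndhI* (adjusted p = 0.0307) passed in limma. An exact two-sided sign-flip test over 3 pairs cannot go below p = 0.25, which is also what it gave for *psaC* against the mean of *ndhE* and *ndhD*.

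Of the other 3 differences, that of *ndhG* from *ndhI* was -0.67 (-0.01, -1.11 and -0.89 in pairs 1, 2 and 3; 95% interval -1.43 to 0.09; adjusted p = 0.197 from limma). *ndhE* and *ndhG* differed by -0.13 (95% interval -0.66 to 0.40) and *ndhA* and *ndhH* by 0.16 (95% interval -0.51 to 0.83). For the latter pair the windows share 199 nt, and what that does to their values was not tested. The windows of *ndhE* and *psaC* share none, and those of *psaC* and *ndhD* share 50 nt.

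Spread in TPM between libraries was larger over the inputs than over the pellets, which held more reads. The SD of TPM was 12.3% to 53.0% of the mean over the inputs, and 4.10% to 14.7% over the pellets, for the 7 genes. In input 1, all 6 *ndh* RNAs lay below the mean of inputs 2 and 3 (by 0.32 to 1.66 on the log2 scale) and *psaC* lay above it (by 0.29). A chi-square of the reads of the 7 genes over the libraries gave 3.95 per degree of freedom in the 3 inputs (12 degrees of freedom) and 1.37 between inputs 2 and 3 (6 degrees of freedom), where 1 is what counting alone gives. The 3 pellets gave 2.23 (12 degrees of freedom), and pellets 2 and 3 gave 1.53 (6 degrees of freedom), above the value for inputs 2 and 3. The make-up of the operon was thus close to counting error in inputs 2 and 3, and input 1 stood apart.

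Scaling moved all 7 genes together. With the 3 most abundant RNAs left out, the log2 enrichments of the 6 *ndh* RNAs lay between 0.97 (*ndhH* and *ndhD*) and 1.89 (*ndhI*), with *psaC* at -0.24 and the median RNA at 0.29. With the median RNA of each library set to 0 they lay between 0.63 and 1.54, with *psaC* at -0.58. Under each of these scalings *ndhI* and *ndhA* passed the adjusted p and the other 5 did not. Over all RNAs in the fit, 7.14% passed with the 3 most abundant left out and 5.48% with the median RNA set to 0.

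**Figure D5:**
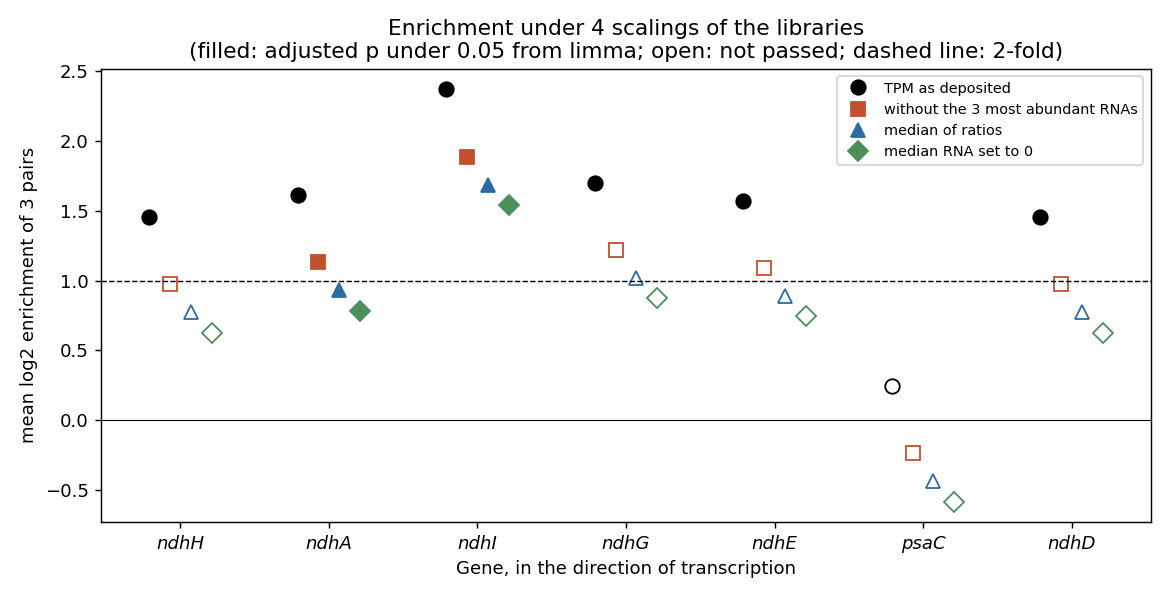
Mean log2 enrichment of 3 pairs for each gene under 4 scalings of the libraries, filled where the adjusted p from limma was under 0.05. *ndhI* and *ndhA* are filled under all 4 scalings, and *psaC* is open at 0.25 with TPM as deposited and at -0.24, -0.44 and -0.58 under the others.

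Both complexes have genes elsewhere on the chloroplast genome. Of the 5 other chloroplast *ndh* genes all were targets, against 34.2% of all RNAs, with means from 1.27 (*ndhJ*) to 2.25 (*ndhF*) and a median of 1.44, against 1.59 for the 6 *ndh* RNAs of this operon. Under the other 3 scalings 2 to 3 targets were left over all RNAs, 1 to 2 of them in the operon, so that most of these 5 calls were lost. Of 6 other genes for photosystem I, *psaI* (1.31) was a target and *ycf4* (0.88), an assembly factor, passed below 2-fold. *psaA* (-0.43), *psaB* (0.38), *psaJ* (0.47) and *ycf3* (0.48) did not pass. The median of these 6 was 0.47. *psaC*, at 0.25, lay between *psaA* and *psaB*, the 2 large core subunits to which its protein is bound. Differences between these lists were not tested.

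The RNA outside the operon with the pattern most like each gene was found as the smallest distance over the log2 enrichments of 3 pairs. It was *psbM*, for a small photosystem II subunit, for *ndhD* (distance 0.17) and *ndhH* (0.45), *ndhK* for *ndhA* (0.51), *ndhC* for *ndhI* (0.80) and *ndhB* for *ndhG* (0.60) and *ndhE* (0.34). For *psaC* it was *psbJ* (0.23), another small photosystem II subunit, which had -0.34, 0.49 and 0.38 and did not pass, followed by *atpE* (0.26), for a subunit of the ATP synthase. Within the operon, *ndhG* and *ndhE* were nearest to each other (0.33), as were *ndhH* and *ndhD* (0.29), while the nearest gene to *psaC*, *ndhH*, was 2.32 away. In pair 1 *psaC* stood at -0.20 and *ndhH* at 1.79. Input 1 held 5 reads of *ndhH*, 13 of *ndhG* and 14 of *ndhE*, and the distances take no account of counting error.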

How the data were processed

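DO-RIP-Seq libraries of 3 inputs and 3 CP31A pellets were used. From the methods and the submitters' notes, the authors kept reads of 40 to 60 bp after Trim Galore 0.6.4, mapped them by STAR 2.5.3 (TAIR10), collapsed molecular identifiers by UMI-tools 0.5.4 and used featureCounts for each chloroplast gene plus 100 nt per side, with coding-strand reads only. They left out genes with fewer than 5 reads in any library. The authors deposited TPM for 77 entries, and log2 TPM, which differed from recomputed values by at most 3.55e-15. The deposited mean enrichment and its p-value were not used. Inverted-repeat copies were averaged to 73 RNAs. Window lengths came from the RefSeq chloroplast annotation of TAIR10.1. Reads were recovered from TPM and window length with a factor per library, the smallest that made most values whole (76 of 77 entries, tolerance 0.0001 reads), and true read numbers could be a multiple.

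Under R 4.3.3, limma 3.58.1 (lmFit, eBayes) fitted log2 TPM, with no pseudocount and the replicate as a block. The fit was run on simulated data with known changes and independent normal noise in each library. These data held no replicate effect and no shift in scaling, so the run cannot bear on either choice. Plants were harvested in triplicate per the labels. The limma p-values rest partly on the spread between these samples and partly on spread pooled over all RNAs or neighbour pairs. In the enrichment fit the pooled part had 6.50 degrees of freedom. These p-values therefore do not measure the spread of a single RNA alone. For *ndhG* the limma standard error was 0.32, where the SD of its 3 pairs was 0.85. The pairing comes from the protocol, in which input and pellet are parts of 1 bead suspension. Deviations from group means correlated at 0.17, 0.30 and -0.03 within replicates 1, 2 and 3. Chi-square comparisons of reads between libraries of a group ranged from 12.5 to 47.1 for each of 72 degrees of freedom, and no library repeats another. Intervals, distances and figures came from scripts in Python 3.11.15 (scipy 1.17.1, numpy 2.4.6, matplotlib 3.10.9, pandas 2.3.3). The named genes are the 7 of the operon, the other *ndh* and photosystem I genes, and the nearest patterns. *atpE* was added after its values were seen. Members and lists were chosen with earlier results of these data known. The alternatives tried were other scalings, pseudocounts of 1 and 10 TPM, at least 20 reads in the mean of the inputs, no block, the methods' test, a variance trend, separate entries, neighbours within 300 nt and leaving out each replicate. Libraries with non-specific immunoglobulins were not analysed here.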

Additional observations from a re-analysis of the deposited data

How the results depend on the processing

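The count of targets among the 7 genes was 6. It was 3 (*ndhA*, *ndhI* and *ndhD*) with the methods' one-sided paired t-test after Benjamini-Hochberg adjustment, 1 with the median RNA of each library set to 0, 2 without the 3 most abundant RNAs and 1 with the median of ratios. The count at the adjusted p alone was also 6, against 49.3% of all RNAs. It was 3 with the methods' test after the same adjustment, against 27.4%, and 2 under each of those 3 scalings, against 4.11% to 7.14%. Both counts were 5 of the 6 genes left when at least 20 reads were required in the mean of the inputs, which removed *ndhH*. Of all RNAs left there, 33.8% were targets and 50% passed the adjusted p. Leaving out a replicate gave 6 targets each time, against 28.8% to 35.6% of all RNAs. At the adjusted p all 7 genes passed without replicate 1, where 79.5% of all RNAs did. Without replicate 2 or 3 it was 6, against 35.6% and 28.8% of all RNAs. Over all RNAs the targets were 25 in the fit reported and 2 to 3 under the other scalings. They were 12 with the methods' test after Benjamini-Hochberg adjustment, which the methods do not name, so this is not the authors' own count. *psaC* changed sign to -0.58 with the median RNA set to 0, to -0.24 without the 3 most abundant RNAs and to -0.44 with the median of ratios. The difference in enrichment between *ndhH* and *ndhA* changed sign to -0.10 without replicate 3. No difference in enrichment between neighbours of the operon passed, but 2 did with no replicate block, against 16.3% of the 43 pairs. With a replicate left out 0 to 4 did, against 0% to 51.2% of the 43. The replicate block changed no call of the 7 genes themselves (6 targets without it). With a replicate left out, 4 to 5 steps in level passed for the inputs, against 51.2% to 86% of the 43. For the pellets it was also 4 to 5, against 83.7% to 95.3% of the 43. With a replicate left out, limma used 1 variance for all RNAs in the enrichment fit, so that these calls do not measure the agreement of the remaining pairs. The few input reads, 5 for *ndhH* and 7 for *ndhI* in input 1, limit the precision of their pair 1 values. Why the counts change with the scaling was not tested beyond the shift of the median RNA from 0.71 to between -0.12 and 0.29.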
